A study of Homo sapiens with 6 samples.

Results

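A set of 10 inflammatory cytokine and chemokine genes of the fibroblast secretome were followed after depletion of ZNF469 in human lung fibroblasts. They are the interleukins IL6, IL11, IL1A and IL1B, the cytokine LIF, and the chemokines CXCL1, CXCL2, CXCL8, CXCL12 and CCL2. Members were taken by gene symbol, but with earlier results of these data known. All 10 were found among the 23754 features of the count table. IMR-90, a line of human fetal lung fibroblasts, carried a doxycycline-inducible short hairpin RNA against ZNF469 in every library. The DOX+ cells (labelled Sh-ZNF469, 3 libraries) received 2 µg/mL doxycycline for 4 days, and the DOX– cells (labelled Control, 3 libraries) received none. The labels give the control genotype as wild-type, whereas the study's methods describe the same transduced line without induction, so all 6 libraries were read as carrying the lentiviral construct and puromycin selection. RNA was poly(A)-selected, and hairpin and doxycycline cannot be told apart because every DOX+ library had both. The libraries were submitted as technical replicates, so the SDs, intervals and p-values given below may cover technical spread only.

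These secreted proteins fall into families that signal through different receptors. IL-6, IL-11 and LIF bind their own receptor chains and share gp130, encoded by IL6ST, which activates JAK kinases and STAT3. The IL-1 cytokines act through IL1R1 and NF-κB, and in senescent fibroblasts, for which IMR-90 is a classical model, they help to sustain the senescence-associated secretory phenotype that includes IL-6 and CXCL8. CXCL1, CXCL2 and CXCL8 attract neutrophils through CXCR2, CCL2 attracts monocytes through CCR2, and CXCL12, a chemokine made by many resting stromal cells, acts through CXCR4 and ACKR3.

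Of the 10 genes, CXCL12 rose after ZNF469 depletion, by 0.28 on the log2 scale (95% interval 0.19 to 0.37, 3 libraries per group) or to 121% of the DOX– level. IL11, LIF, CCL2 and IL6 were expressed in every library and did not pass the test. The remaining 5 genes, namely CXCL8, CXCL1, CXCL2, IL1A and IL1B, were at or near 0 counts in DOX– and DOX+ cells alike and were too low to be tested. The knockdown was partial, as ZNF469 itself was at 67.5% of its DOX– level (log2 fold change −0.57, edgeR adjusted p = 3.31e-05).

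The libraries held 34057675 to 36120260 counts. DOX+ replicate 2 stood apart from the other 5 libraries on principal component 1 (23.9% of the variance; scores of 32.8 and, elsewhere, −12.6 to 0.524), and the call among the members is therefore also given without it. The cells expressed all 10 fibroblast markers examined. However, 5 of these (COL1A1, COL1A2, COL3A1, DCN and LUM) were lower in DOX+ cells at an edgeR adjusted p under 0.05. Of all features tested, 0.715% were. LUM lay at the threshold (edgeR adjusted p = 0.0499). The summed level of the fibroblast markers was 37400 to 38500 CPM (counts scaled to a common library total by TMM factors) in DOX– and 28000 to 28900 CPM in DOX+ libraries, and its part in the results was not tested. The largest falls in this sum were those of COL1A1 (means of 15510 CPM in DOX– and 9610 CPM in DOX+) and COL1A2 (10080 and 7107 CPM). VIM (8006 and 7895 CPM), PDGFRA, PDGFRB, THY1 and FBN1 were not called. Of 12 leukocyte markers, 7 were at 0 in every library, and CD68, which many cell types express, gave most of the summed level of 60.9 to 67.1 CPM in DOX– and 59.2 to 65.5 CPM in DOX+ libraries. The leukocyte marker PTPRC had 8 counts in all in each group. The summed levels of 6 endothelial markers (19.9 to 24.3 CPM in DOX–, 20.6 to 23.9 CPM in DOX+) and of 8 lung epithelial markers (1.73 to 2.26 CPM and 1.51 to 2.45 CPM) overlapped between groups. TEK gave most of the endothelial sum, with means of 20.9 CPM in DOX– and 21.1 CPM in DOX+ libraries. AGER gave most of the epithelial sum (1.66 and 1.54 CPM), whereas SFTPC, NKX2-1, PECAM1 and CDH5 were at 0 throughout. In such bulk RNA, a change in the number of cells that express a gene cannot be told apart from a change in RNA per cell.

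To compare levels between genes, the deposited FPKM values were used, which are scaled to transcript length and library size. CXCL12 had the highest level of the 10, at 41.3 ± 1.38 FPKM (SD, n = 3) in DOX– cells, above 93.7% of all features. IL11, a cytokine of the gp130 family linked to fibroblast activation, followed with 26.4 ± 0.472 FPKM (SD, n = 3) in DOX– cells. Together these genes gave 48.4% and 31.0% of the summed FPKM of the 10 members. CCL2 stood at 10.3 ± 0.470 FPKM (SD, n = 3), LIF at 5.17 ± 0.256 FPKM (SD, n = 3) and IL6 at 1.95 ± 0.323 FPKM (SD, n = 3) in DOX– cells. Over the 6 libraries the ranges of these 5 genes did not overlap, so the order CXCL12, IL11, CCL2, LIF and IL6 was the same in every library. Below IL6 no order could be set, because the ranges of CXCL8, CXCL1, IL1B, CXCL2 and IL1A each overlapped the next and none exceeded 0.224 FPKM.

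**Figure D1:**
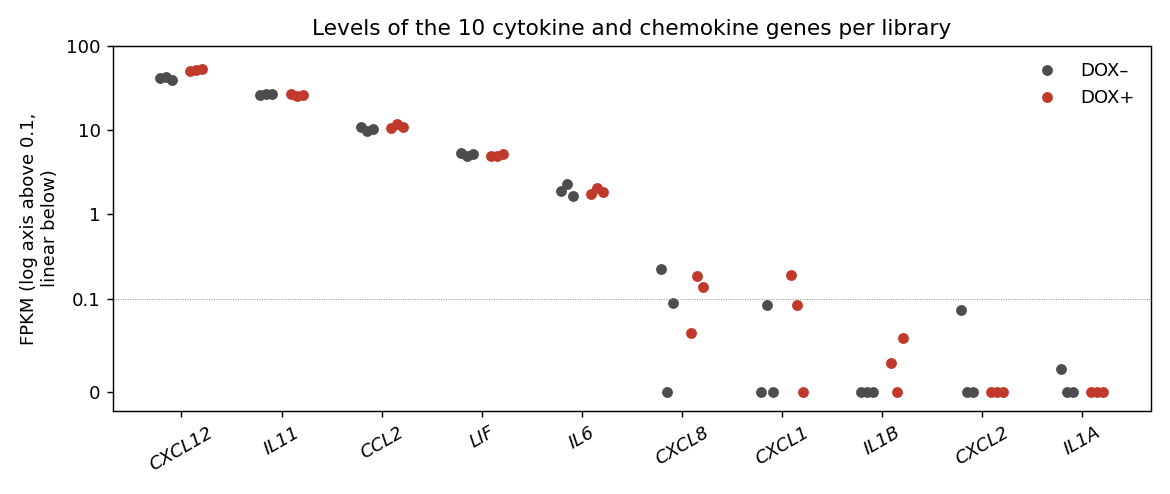
Deposited FPKM values of the 10 genes in each DOX– library (grey) and DOX+ library (red), on an axis that is logarithmic above 0.1 and linear below. CXCL12, IL11, CCL2, LIF and IL6 form separate steps, CXCL12 lies higher in the 3 DOX+ libraries, and the other 5 genes scatter from 0 to 0.224 FPKM.

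The proximal promoters of these genes differ in the letters they hold, and stretches of 6 of them are shown so that the expressed and the near-silent members can be read side by side. RefSeq windows of GRCh38.p14, reaching from 250 bases before to 50 after a transcription start, were found for 8 of the 10 members and not for LIF and CCL2. Each line gives the 120 bases that end 21 bases before the start, 5′ to 3′ on the gene's strand, with matches to the searched motifs in capitals. The motifs, searched on both strands, were TGANTCA (AP-1), an NF-κB decamer (10 bases, seen in capitals in the lines of IL6, CXCL1 and CXCL2), GGAANTTCC (NF-κB-like, which can overlap the decamer), TTGCNNAA (C/EBP-like) and TATAAA (the core promoter box of that name).
CXCL12 (chr10:44385118-44385237, minus strand): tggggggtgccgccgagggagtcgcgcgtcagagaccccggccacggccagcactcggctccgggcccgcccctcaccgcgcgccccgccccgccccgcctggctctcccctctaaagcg
IL11 (chr19:55370484-55370603, minus strand): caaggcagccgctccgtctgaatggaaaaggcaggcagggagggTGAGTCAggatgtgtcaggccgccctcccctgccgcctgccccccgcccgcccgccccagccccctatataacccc
IL6 (chr7:22727060-22727179, plus strand): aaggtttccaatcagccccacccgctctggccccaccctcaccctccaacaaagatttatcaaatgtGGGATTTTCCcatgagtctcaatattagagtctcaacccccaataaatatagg
CXCL8 (chr4:73740429-73740548, plus strand): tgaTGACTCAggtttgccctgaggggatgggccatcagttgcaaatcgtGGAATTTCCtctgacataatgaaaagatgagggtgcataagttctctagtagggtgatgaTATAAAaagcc
CXCL1 (chr4:73869253-73869372, plus strand): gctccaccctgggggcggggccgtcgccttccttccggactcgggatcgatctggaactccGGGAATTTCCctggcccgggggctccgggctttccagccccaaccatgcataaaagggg
CXCL2 (chr4:74099216-74099335, minus strand): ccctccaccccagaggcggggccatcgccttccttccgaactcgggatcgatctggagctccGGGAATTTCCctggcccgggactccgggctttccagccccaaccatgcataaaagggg

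The window of CXCL12, the member that rose, held no match to any of the 5 motifs, and 77.0% of its bases were G or C, more than in 93.6% of all windows (median 58.7%). IL6, CXCL1 and CXCL2 each held the NF-κB decamer, which 0.558% of the 35114 windows hold. GGAANTTCC, held by 0.965% of windows, was found in CXCL1, CXCL2 and CXCL8, so in CXCL1 and CXCL2 the NF-κB-like motifs overlap. CXCL1 and CXCL2 lie in the same chemokine cluster on chromosome 4, and their stretches shared 91 of 120 bases when aligned without gaps at a shift of 1 base. TGANTCA (7.71% of windows) was present in IL11, IL1A and CXCL8, TATAAA (11.5%) in CXCL8 and IL1A, and TTGCNNAA (10.5%) in IL6, IL1B and CXCL2, in part outside the stretches printed. The TATAAA match began at offset −31 from the start in CXCL8 but at −239 in IL1A, so position was not part of the search. Such matches are letters in a window only, and binding was not measured here at these promoters.

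To determine which members changed after ZNF469 depletion, the counts were fitted with edgeR's quasi-likelihood model, DOX+ against DOX–, with Benjamini-Hochberg adjustment over the 13991 features that had enough counts. A call means an adjusted p under 0.05. Of all features tested, 1.12% were called in either direction and 0.400% were called higher in DOX+ cells. Among the members, 5 of 10 passed the filter on low counts, 1 was called higher and 0 lower. At an unadjusted p under 0.05 1 member was higher and 0 lower (7.31% and 7.69% of all features). DESeq2 and limma-voom called 1 and 0 as well, against 266 and 265 of all features in DESeq2 and 56 and 98 in limma-voom. DESeq2 gave no adjusted p for CCL2 and IL6, so it could not call them. The median log2 fold change of the 5 tested members was 0.0034, against −0.0019 for all features tested. With an absolute log2 fold change over 1 also required, the criterion of the study, 0 members were called, against 0.0429% of features. The study reported far more genes under this criterion than were called here, and the reason was not tested.

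CXCL12 (ENSG00000107562, chr10:44370165-44386493 of GRCh38 in GENCODE 44, minus strand, 3 exons in the canonical transcript) had 3312, 3602 and 3342 counts in DOX– replicates 1, 2 and 3 and 4229, 4154 and 4462 counts in DOX+ replicates 1, 2 and 3. On the scale of CPM normalized by TMM factors, its level was 97.8, 102.4 and 95.8 in the DOX– libraries and 118.5, 117.2 and 123.2 in the DOX+ libraries. Every DOX+ library thus lay above every DOX– library, as was the case for 9.73% of all features tested, with 10.6% the other way round and 20.3% in either direction. None of the other 4 tested members separated by group. The group means were 98.7 ± 3.38 CPM (SD, n = 3) and 119.6 ± 3.16 CPM (SD, n = 3), a log2 fold change of 0.28 (standard error 0.0424, 95% interval 0.19 to 0.37, edgeR adjusted p = 0.00557). The two-sided exact permutation p for this gene alone was 0.1, the smallest that 3 libraries against 3 allow. Among the 56 features called higher, CXCL12 ranked 9 by p-value and 21 by log2 fold change. Without DOX+ replicate 2 the log2 fold change was 0.29 (edgeR adjusted p = 0.0074). Counts were made per gene, so the splice forms of CXCL12 were not separated.

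The rise of CXCL12 was also read against the other members within each library, a measure that no scaling between libraries can move. All of these ratios share the CXCL12 counts, so they restate its rise and are not separate evidence for it. The ratio of CXCL12 to IL11 counts was 1.66, 1.65 and 1.54 in the DOX– libraries and 1.92, 2.02 and 2.05 in the DOX+ libraries, without overlap (exact two-sided permutation p = 0.1). Relative to LIF the ratio was 4.34 ± 0.382 (SD, n = 3) in DOX– and 5.56 ± 0.0224 (SD, n = 3) in DOX+ libraries, and relative to IL6 it was 39.5 ± 5.06 (SD, n = 3) and 47.1 ± 2.72 (SD, n = 3), each without overlap and with an exact permutation p of 0.1. The ratio to CCL2 was 11.6 ± 0.870 (SD, n = 3) in DOX– and 13.3 ± 0.730 (SD, n = 3) in DOX+ libraries, and here the groups overlapped (exact permutation p = 0.2).

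**Figure D2:**
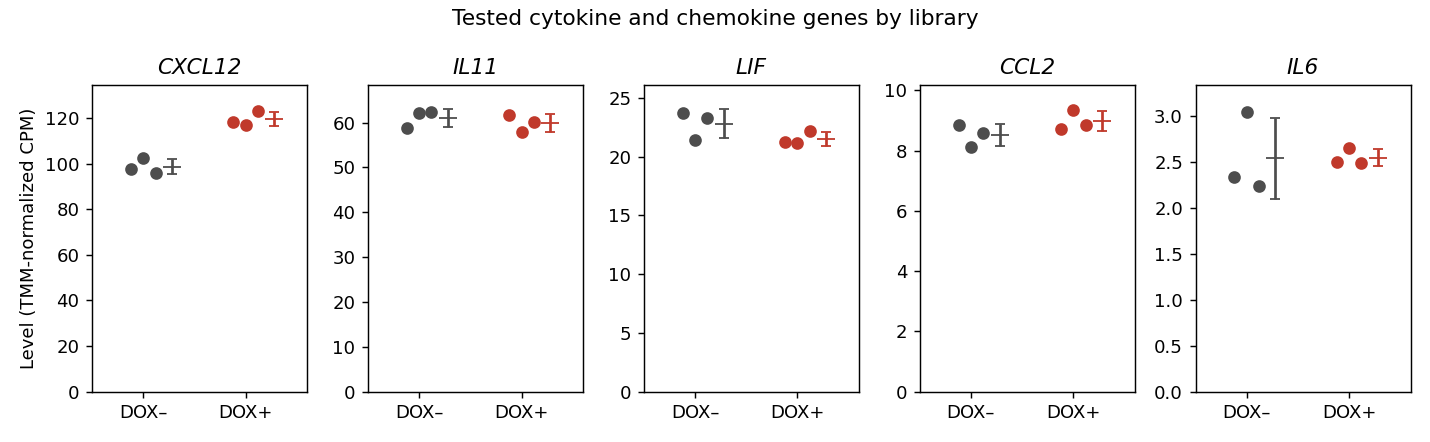
Level in TMM-normalized CPM of the 5 tested members, one panel per gene with its own axis from 0, in 3 DOX– libraries (grey) and 3 DOX+ libraries (red), with the mean and SD beside the points. The CXCL12 points separate (95.8 to 102.4 against 117.2 to 123.2 CPM), whereas those of IL11, LIF, CCL2 and IL6 overlap.

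The gp130 cytokines were not called. IL11 (chr19:55364382-55370463, minus strand) was at 58.8, 62.1 and 62.4 CPM in DOX– libraries and at 61.7, 57.9 and 60.1 CPM in DOX+ libraries. These values interleave, and the log2 fold change was −0.03 with a 95% interval from −0.13 to 0.07 (edgeR adjusted p = 0.825), or 0.916 to 1.05 as a fold. LIF (chr22:30240453-30246759, minus strand), which is named for its action on leukemia cells and signals through LIFR and gp130, was at 23.7, 21.4 and 23.3 CPM in DOX– and at 21.2, 21.1 and 22.2 CPM in DOX+ libraries. DOX– replicate 2 lay within the DOX+ range, and the log2 fold change was −0.08 (95% interval −0.23 to 0.06, edgeR adjusted p = 0.603). IL6 (chr7:22725884-22732002, plus strand), the best known cytokine of the senescence secretome, had 79, 107 and 78 counts in DOX– and 89, 94 and 90 counts in DOX+ libraries. The DOX+ values all fell inside the DOX– range, at 2.54 ± 0.440 CPM (SD, n = 3) in DOX– and 2.54 ± 0.0935 CPM (SD, n = 3) in DOX+ cells. With so few counts the interval of the IL6 log2 fold change was wide, from −0.40 to 0.40 around 0.0034 (edgeR adjusted p = 0.996). IL6 overlaps STEAP1B on the opposite strand (183 to 270 counts per library), and whether reads were assigned by strand is not given in the sources used here.

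CCL2 (chr17:34255274-34257208, plus strand), the monocyte chemoattractant, had 300, 286 and 300 counts in DOX– and 311, 332 and 321 counts in DOX+ libraries. Scaled to library size these were 8.86, 8.13 and 8.60 CPM against 8.72, 9.36 and 8.86 CPM, and DOX+ replicate 1 lay within the DOX– range. The log2 fold change was 0.07 (95% interval −0.15 to 0.30, edgeR adjusted p = 0.783), so a rise as large as that of CXCL12 lay within the interval for CCL2. By contrast, the intervals of IL11 and LIF ended below 0.19, the lower bound for CXCL12.

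**Figure D3:**
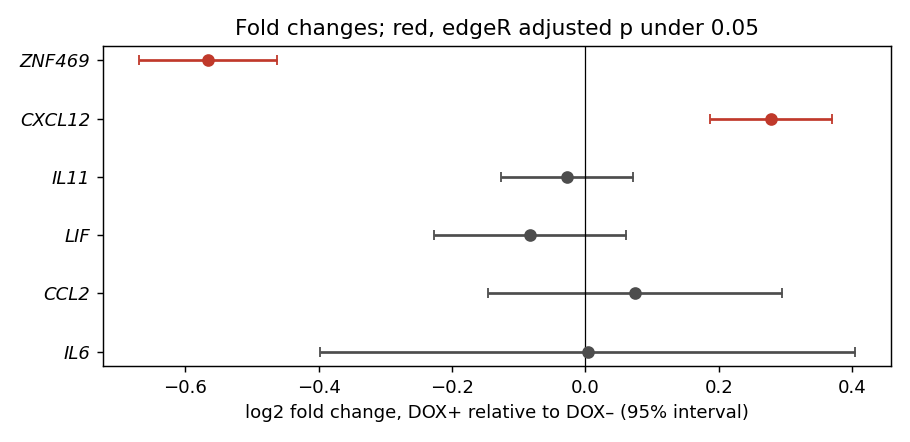
Log2 fold change of DOX+ relative to DOX– libraries with its 95% interval for ZNF469 and the 5 tested members, in red where the edgeR adjusted p was under 0.05. ZNF469 (−0.57) and CXCL12 (0.28) lie away from 0 in opposite directions, and the intervals of IL11, LIF, CCL2 and IL6 all include 0.

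The neutrophil chemokines were at the limit of detection. CXCL8 (chr4:73740519-73743716, plus strand) had 13, 0 and 7 counts in DOX– and 5, 12 and 10 counts in DOX+ libraries. CXCL1 (chr4:73869393-73871308, plus strand) had 0, 4 and 0 counts in DOX– and 9, 4 and 0 counts in DOX+ libraries. CXCL2 (chr4:74097040-74099196, minus strand) had 4 counts in DOX– replicate 1 and 0 in the other 5 libraries. For each of these chemokines the groups overlapped, and no change was detectable at this depth. CXCL1 and CXCL2 are close in sequence, so how reads were split between them is uncertain.

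The IL-1 cytokines, which sit at the top of the secretome cascade, had as few counts. IL1A (chr2:112773925-112784493, minus strand) had 3 counts in DOX– replicate 1 and 0 elsewhere. IL1B (chr2:112829751-112836816, minus strand) had 0 counts in the DOX– libraries and 2, 0 and 4 counts in the DOX+ libraries. A count of 0 allows up to 3 counts, which is 0.0828 to 0.0886 CPM per library, for counting error only. In each library 498 to 564 features had exactly 2 counts and 111 to 154 had exactly 1, and whether the mates of a pair were counted separately was not tested. When no filter on low counts was applied, these 5 untested genes had edgeR adjusted p-values from 0.575 to 0.902.

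Receptors for the gp130 and IL-1 cytokines were expressed, whereas receptors for the chemokines were not detected. Of 15 receptors, decoys and antagonists, 7 were tested and 0 were called by edgeR, DESeq2 or limma-voom (in edgeR, 1.12% of all features were). At an unadjusted p under 0.05 there were 0 as well (7.31% of all features were higher and 7.69% lower). A list of 7 can hold 0 calls at such shares. The median log2 fold change of the 7 tested genes was −0.0087. IL6ST, the gp130 chain, had 36.8 ± 1.39 FPKM (SD, n = 3) in DOX– and 38.6 ± 2.58 FPKM (SD, n = 3) in DOX+ cells. The chains that pair with it were lower, with 8.81 ± 0.358 FPKM (SD, n = 3) for IL11RA, 1.90 ± 0.193 FPKM (SD, n = 3) for IL6R and 1.39 ± 0.0393 FPKM (SD, n = 3) for LIFR in DOX– cells. IL1R1, the signaling receptor of IL-1, had 5.98 ± 0.186 FPKM (SD, n = 3), its partner IL1RAP 3.01 ± 0.178 FPKM (SD, n = 3) and the inhibitory receptor SIGIRR 4.91 ± 1.29 FPKM (SD, n = 3) in the same cells. CXCR4 and ACKR3, the receptors of CXCL12, had 0 counts in all 6 libraries, which allows up to 0.0886 CPM in the shallowest. The same held for CXCR1, CXCR2, CCR2, the chemokine-binding ACKR1, the decoy receptor IL1R2 and the antagonist IL1RN.

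Regulators of cytokine transcription were compared next, with lists drawn up by function. Of 22 NF-κB and C/EBP factors, adaptors and inhibitors, all were tested, 2 were called lower (0.715% of all features were) and 0 higher, and the median log2 fold change was −0.04. At an unadjusted p under 0.05 there were 4 lower and 0 higher (7.69% and 7.31% of all features were). Both called genes are C/EBP factors, which act with NF-κB at cytokine promoters. CEBPB was at 82.3, 83.2 and 84.5 CPM in DOX– and at 70.0, 68.3 and 70.3 CPM in DOX+ libraries, without overlap (log2 fold change −0.26, standard error 0.0400, edgeR adjusted p = 0.00557). CEBPD was at 21.9, 21.4 and 22.7 CPM in DOX– and at 17.0, 17.6 and 17.4 CPM in DOX+ libraries, also without overlap (log2 fold change −0.34, standard error 0.0663, edgeR adjusted p = 0.0259). Of all features tested, 10.6% were likewise lower without overlap. The CEBPD call was lost whichever library was left out, with log2 fold changes from −0.36 to −0.32 and edgeR adjusted p-values from 0.0535 to 0.128, and with the transcript length trend removed (log2 fold change −0.29, edgeR adjusted p = 0.0619). RELB, an NF-κB subunit, had the next smallest p-value, at 10.5 ± 1.01 CPM (SD, n = 3) in DOX– and 8.08 ± 1.52 CPM (SD, n = 3) in DOX+ cells (edgeR adjusted p = 0.219). NFKBIA, a feedback inhibitor and direct NF-κB target, had a log2 fold change of −0.12 (edgeR adjusted p = 0.272), and TNFAIP3, another such target, one of 0.12 (adjusted p = 0.598 from the same edgeR test).

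Among 8 AP-1 factors, edgeR, DESeq2 and limma-voom called 0 (in edgeR, 1.12% of all features were called). In edgeR, 1 was lower at an unadjusted p under 0.05 (7.69% of all features were). This was FOSL1, with a log2 fold change of −0.13 (edgeR adjusted p = 0.213), followed by ATF3 (−0.32, adjusted p = 0.372 in the same edgeR test) and JUND (−0.08, edgeR adjusted p = 0.493). Of 10 genes downstream of gp130, 0 were called by these tools (in edgeR, 1.12% of all features were). At an unadjusted p under 0.05 1 was higher and 1 lower (7.31% and 7.69% of all features were). The first was the phosphatase PTPN11 (0.08 on the log2 scale, edgeR adjusted p = 0.294), and the second the kinase TYK2 (−0.13, edgeR adjusted p = 0.316). SOCS3, the feedback inhibitor that STAT3 induces, was at 48.2 ± 1.29 CPM (SD, n = 3) in DOX– and 49.1 ± 1.69 CPM (SD, n = 3) in DOX+ cells. Of 8 proteins listed as binding or degrading AU-rich cytokine mRNAs, edgeR and limma-voom called 0 and DESeq2 called 1 lower (265 of 13991 features were). At an unadjusted p under 0.05 in edgeR, 2 were lower (7.69% of all features were). These were ZFP36L1 (log2 fold change −0.14, edgeR adjusted p = 0.109) and ZFP36 (−0.16, edgeR adjusted p = 0.294), both of which promote mRNA decay, and RC3H1 came next (0.13, edgeR adjusted p = 0.403).

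Other cytokines and growth factors of the senescence secretome were examined next. Of 31 listed, 12 were tested, and edgeR, DESeq2 and limma-voom each called 1 higher and 1 lower (in edgeR, 0.400% and 0.715% of all features were), at a median log2 fold change of −0.06. At an unadjusted p under 0.05 in edgeR, 2 were higher and 3 lower (7.31% and 7.69% of all features were). Of the 19 untested, 10, among them CXCL3, CXCL6, CXCL10, CCL7, CCL20, CSF3, IL33 and TNF, had 0 counts in every library. GDF15, a stress-induced member of the TGF-β family, was at 40.4, 40.1 and 41.1 CPM in DOX– and at 32.9, 31.0 and 33.2 CPM in DOX+ libraries (log2 fold change −0.32, standard error 0.0512, edgeR adjusted p = 0.00629). INHBA, which encodes the activin A subunit, was at 303, 301 and 293 CPM in DOX– and at 340, 365 and 332 CPM in DOX+ libraries (log2 fold change 0.21, standard error 0.0391, edgeR adjusted p = 0.0202). Neither gene overlapped between groups, as was the case for 10.6% (lower) and 9.73% (higher) of all features tested. INHBA was no longer called when DOX– replicate 1, 2 or 3 or DOX+ replicate 1 was omitted (4 of 6 such fits, log2 fold changes from 0.20 to 0.22, edgeR adjusted p from 0.0663 to 0.108). VEGFA, the angiogenic growth factor, had the next smallest p-value, with a log2 fold change of −0.18 (edgeR adjusted p = 0.114).

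Of 28 proteases, protease inhibitors, IGF-binding proteins and other secretome products, 25 were tested. Both edgeR and limma-voom called 1 higher and 0 lower (in edgeR, 0.400% and 0.715% of all features were). DESeq2 called 1 higher and 1 lower (266 and 265 of 13991 features were). At an unadjusted p under 0.05 in edgeR there were 4 higher and 5 lower (7.31% and 7.69% of all features were), and the median log2 fold change was −0.02. PLAU, which encodes urokinase, had a log2 fold change of −0.10 (edgeR adjusted p = 0.150), and TNFRSF11B, which encodes osteoprotegerin, one of 0.18 (edgeR adjusted p = 0.157). MMP1, a collagenase typical of the secretome, stood at 89.0 ± 2.48 CPM (SD, n = 3) in DOX– and 96.0 ± 2.67 CPM (SD, n = 3) in DOX+ cells (edgeR adjusted p = 0.245).

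Markers of the senescent state itself were measured in the same libraries. Of 13 cell-cycle inhibitors and nuclear markers, all were tested and 0 were called by edgeR, DESeq2 or limma-voom (in edgeR, 1.12% of all features were). At an unadjusted p under 0.05 there were 0 as well (7.31% of all features were higher and 7.69% lower). A list this short can hold 0 calls at such shares. Its median log2 fold change was −0.01. CDKN1A, which encodes the cell-cycle inhibitor p21, was at 843 ± 3.42 CPM (SD, n = 3) in DOX– and 821 ± 14.5 CPM (SD, n = 3) in DOX+ cells (edgeR adjusted p = 0.548). CDKN2A, which encodes p16, was at 16.6 ± 0.421 CPM (SD, n = 3) and 15.8 ± 0.541 CPM (SD, n = 3). LMNB1, a lamin that is lost in senescence, was at 103 ± 1.57 CPM (SD, n = 3) and 100.5 ± 3.07 CPM (SD, n = 3). MKI67, a proliferation marker, was at 139 ± 7.36 CPM (SD, n = 3) and 136 ± 5.10 CPM (SD, n = 3), and RB1 had the smallest p-value of the list, with a log2 fold change of 0.10 (edgeR adjusted p = 0.421), followed by CCND1 (0.04, adjusted p = 0.485) and E2F1 (−0.11, adjusted p = 0.504), which drive entry into the cell cycle.

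**Figure D4:**
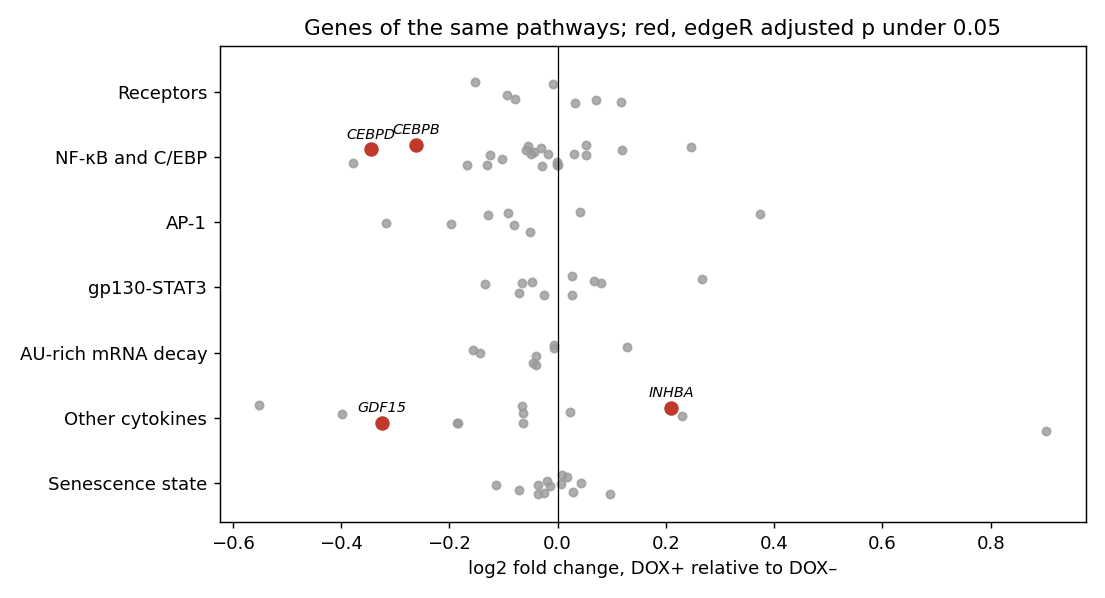
Log2 fold change of DOX+ relative to DOX– libraries for the 80 tested genes of 7 lists around the cytokines, one point per gene and one row per list, in red where the edgeR adjusted p was under 0.05. CEBPD (−0.34), GDF15 (−0.32) and CEBPB (−0.26) lie below 0 and INHBA (0.21) above it. The receptor, AP-1, gp130-STAT3, AU-rich mRNA decay and senescence lists hold no called gene, where 1.12% of all features tested were called.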

How the data were processed

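RNA from 3 DOX– and 3 DOX+ IMR-90 libraries was sequenced in read pairs of 150 bp. Per the labels and the study's methods, reads that passed the authors' quality filter were mapped on GRCh38 by HISAT2, and StringTie was used after alignment. Tool versions, annotation release and counting step are not given in the sources used here. The authors deposited whole-number counts, used for all tests, and FPKM values, used only to compare levels between genes. After 17 stray lines were dropped, 23754 features remained.

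The counts were tested with edgeR 4.0.16 (R 4.3.3): filterByExpr (minimum count 10), TMM normalization, and the quasi-likelihood test without covariates. Benjamini-Hochberg adjustment covered 13991 features, and intervals used the test's degrees of freedom. Alternatives were other filters, scalings and thresholds, DESeq2 1.42.0, limma-voom (limma 3.58.1), each library left out, a replicate block, and a per-library lowess trend on GENCODE 44 transcript length (span 0.3) removed. Scripts were tested on simulated data. Named genes were the members, ZNF469, and from each list all called genes, the 3 with the smallest p-values and all receptors; COL1A1, COL1A2, COL3A1, DCN, LUM and the other markers, NFKBIA, TNFAIP3, STEAP1B, the cytokines at 0 counts (CXCL3, CXCL6, CXCL10, CCL7, CCL20, CSF3, IL33 and TNF), SOCS3, MMP1, CDKN1A, CDKN2A, LMNB1 and MKI67 were added after their values were seen. A called gene of the secretome list and a gene downstream of gp130 that the rule names are not reported here. Members and lists were chosen with earlier results of these data known. Libraries were submitted as technical replicates, so p-values may cover technical spread only. No library duplicated another (chi-square per degree of freedom 4.28 to 7.41 within groups).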

Additional observations from a re-analysis of the deposited data

How the results depend on the processing

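CXCL12 kept its direction and its call in all 14 alternatives, with log2 fold changes from 0.26 to 0.31 and adjusted p-values up to 0.0402 (without DOX– replicate 1). The number of members called stayed at 1 in every alternative except the added criterion of an absolute log2 fold change over 1, which gave 0. With each library left out it was 1 throughout. IL11, LIF and CCL2 kept their signs in all 14 alternatives without being called, although DESeq2 gave CCL2 no adjusted p and so could not call it. IL6 changed sign when DOX– replicate 1 (−0.0528), DOX– replicate 3 (−0.0796) or, among the DOX+ libraries, replicate 2 (−0.0262) was omitted, with a range from −0.0796 to 0.156 over such fits. ZNF469, CEBPB and GDF15 kept their calls in all 14.

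The counts of features called higher (56) and lower (100) moved more. They were 127 and 163 without the filter, 88 and 77 with library size scaling (53.3% of calls higher in place of 35.9%), 266 and 265 with DESeq2, 2 and 4 with a log2 fold change over 1 required, and 147 and 192 at an adjusted p under 0.1. Leaving out one library gave 20 to 69 higher and 54 to 92 lower, both lowest without DOX+ replicate 1. With the replicate number as a block there were 135 higher and 157 lower, and CXCL12 kept its call (adjusted p = 0.0102). Deviations of same-numbered libraries from their group means correlated by −0.0352 to 0.0363, so the numbers were not taken to pair the libraries. The cause of these shifts was not tested. The 5 untested members had too few counts for a test at this depth, and whether they were silent was not tested. Counting error alone was small for CXCL12 and IL11, and it does not cover spread between cultures.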
